A study of Mus musculus with 4 samples.

Results

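Smooth muscle cells contract through a set of dedicated cytoskeletal proteins, and 10 of the genes that encode or control them were read in explants cultured from the mouse AGM, the embryonic region that holds the aorta, gonads and mesonephros. The 10 genes were Acta2, Tagln, Myh11, Cnn1, Myl9, Tpm2, Actg2, Smtn, Lmod1 and Myocd, chosen by name from 49997 genes in the count tables, and all 10 were found there. Smooth muscle alpha-actin (Acta2) and gamma-actin (Actg2) form the thin filaments, and the heavy chain Myh11 with the regulatory light chain Myl9 belongs to the myosin that pulls on them. Tropomyosin (Tpm2), calponin (Cnn1), transgelin (Tagln), smoothelin (Smtn) and leiomodin (Lmod1) bind actin. Myocardin (Myocd) is a coactivator of serum response factor (SRF), which binds a short DNA element, the CArG box, in front of many of these genes. In the AGM, smooth muscle cells gather around the dorsal aorta, the vessel from whose wall the first haematopoietic stem cells emerge.

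The 4 libraries were made from poly(A) RNA of AGM explants of C57BL/6J embryos, kept for 48 hours at the interface of gas and liquid on filters in 1.5 mL of MyeloCult with hydrocortisone. There were 2 untreated libraries and 2 libraries from explants treated with 5 µM CCCP, a protonophore that dissipates the mitochondrial membrane potential. The labels give the stage as E10.5 in one place and as E10.5 and E11.5 in another. They name the cells as embryonic or c-kit+ haematopoietic stem cells and the RNA as that of explants, and nothing in them says whether replicates came from separate embryos or cultures, so p-values measure only the spread between these libraries.

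The transcripts measured were those of a mixed tissue. The 13 fibroblast and mesenchymal markers summed to between 5233 and 7684 CPM (counts scaled to library size) per library. The sums were 215 to 275 CPM for 10 haematopoietic markers and 247 to 407 CPM for the 10 smooth muscle genes. They are not scaled to length and rest on the most abundant genes, such as Col3a1 at 1306 to 2303 CPM. Such sums do not measure shares of cells. Total counts ran from 37360968 to 48827826 per library, so that 3 counts, taken as the floor of detection, stood for 0.0614 to 0.0803 CPM before library scaling. In bulk RNA of this kind, fewer cells of a type and less RNA per cell cannot be told apart.

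The sequences behind the counts bear on how far these genes can be told apart. Acta2 (mm10, chromosome 19, 34240336 to 34255585, minus strand) and Actg2 (chromosome 6, 83512909 to 83536251, minus strand) have coding sequences that are 83.8% identical over 1131 bases read back from the stop codon. They are shown where they are most alike, among 212 windows of 60 coding bases that lie within a single exon of each gene. Capitals mark bases at which the 2 genes differ. The windows lie at chr19:34243320-34243379 and chr6:83516271-83516330, both on the minus strand and written 5′ to 3′ as in GENCODE vM21, whose build is the same.
Acta2, most alike: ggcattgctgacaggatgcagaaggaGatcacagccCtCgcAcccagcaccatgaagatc
Actg2, most alike: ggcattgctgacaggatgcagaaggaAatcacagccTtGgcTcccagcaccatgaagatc

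This window, the closest of them, held 4 differences. No stretch of 50 bases of the Actg2 transcript occurred in a transcript of any other gene, and of the Acta2 transcript 7 of 1986 stretches did, none of them in Actg2. The count of one smooth muscle actin thus drew on stretches of that length that the other lacks. Cnn1, Myl9, Tpm2 and Lmod1 shared no such stretch either, and Myh11 shared 0.406% of its stretches, with the non-muscle heavy chains Myh9 and Myh10.

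Tagln could not be read at its full length in these tables. Of its 1586 exon bases (chromosome 9, 45929628 to 45936058, minus strand), 1361, or 85.8%, are also exon bases of Pcsk7 on the plus strand in the annotation used for counting, which is as large a shared part as in only 2.66% of all genes or larger. Reads touching more than 1 gene were not counted, and strand was not used, which left 225 bases at the 5′ end of the gene. Untreated replicates 1 and 2 had 15 and 5 counts and CCCP replicates 1 and 2 had 3 and 8, or 0.0618 to 0.3 CPM. Transgelin is a widely used early marker of smooth muscle, and its level here is that of the unshared bases alone. Over those 225 bases it came to 1.33 and 0.594 RPKM untreated and to 0.275 and 0.98 RPKM in CCCP, with overlap. Reads that ran from those bases into shared ones were not counted either, so these values may be too low. In the GENCODE annotation of the same build the part shared with Pcsk7 is 5.43%. Of 1546 stretches of 50 bases of the Tagln transcript there, 747 occurred in transcripts of other genes on either strand. Gm48529 held 688 of them. Smtn (chromosome 11, 3517522 to 3539292) shares 15.6% of its exon bases with Gm11946 on the other strand, which itself had 1 to 22 counts, while the other 8 genes share under 1%.

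CArG boxes were looked for in the RefSeq promoter windows (GRCm38.p6) of 250 bases before to 50 bases after an annotated start, which 6 of the 10 genes have in the table used. The box was taken by its name, on a palindromic consensus that reads alike on both strands, either exactly or with up to 1 mismatch in its AT core. An exact box stands in 1.63% of all 32851 windows and a box with up to 1 mismatch in 9.98%. Myl9 (chromosome 2, 156775408 to 156781657, plus strand) has an exact box and a box with 1 mismatch, beginning 161 and 99 bases before the start at 156775464, which lies inside the span just given. Acta2 has 2 boxes with 1 mismatch, beginning 84 and 34 bases before the start at 34255373, which lies inside the span of the gene given above. The windows of Tpm2, Cnn1, Smtn and Lmod1 hold none. The 4 boxes are printed with 10 bases on each side, with the box in capitals, because SRF and Myocd are known to act through elements of this kind. The boxes are matches to a pattern only, and binding to them was not tested. They lie at chr2:156775293-156775322 and chr2:156775355-156775384 on the plus strand and chr19:34255438-34255467 and chr19:34255388-34255417 on the minus strand.
Myl9, distal: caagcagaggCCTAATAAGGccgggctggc
Myl9, proximal: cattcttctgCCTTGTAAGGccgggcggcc
Acta2, distal: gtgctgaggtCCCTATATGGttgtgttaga
Acta2, proximal: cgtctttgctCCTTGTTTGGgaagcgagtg

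The 10 genes differed widely in level per length of exon. In RPKM (CPM per kilobase of exon), the mean over the 4 libraries was 45.7 ± 14.0 for Acta2, 29.6 ± 6.82 for Myl9 and 24.8 ± 3.75 for Tpm2 (SD, n = 4). These 3 genes held between 83.7% and 87.3% of the summed RPKM of the 10 genes without Tagln in each library. Smtn followed at 8.18 ± 0.327 and Actg2 at 5.74 ± 2.47, then Cnn1 at 1.48 ± 0.779 RPKM (SD, n = 4). Lmod1, Myh11 and Myocd stood below 1 RPKM in every library. Levels and order rest on all annotated exon bases, which can exceed 1 transcript. For Smtn these are 6087, of which 950 are shared, against 3020 in its GENCODE transcript of longest coding sequence. For Tpm2 they are 3355 against 2175, for Actg2 1315 against 1333 and for Myl9 1171 against 1128. The values of Smtn and Tpm2 may thus be too low beside those of Actg2 and Myl9.

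The order of neighbours held within all 4 libraries for Acta2 over Myl9, Myl9 over Tpm2, Tpm2 over Smtn, Actg2 over Cnn1 and Cnn1 over Lmod1. Smtn lay above Actg2 in 3 libraries and below it in CCCP replicate 2. Lmod1 lay above Myh11 in 2 of the 4, so those neighbours did not differ beyond their spread. Myh11 lay above Myocd in 3 of the 4, and their ranges overlapped.

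**Figure D1:**
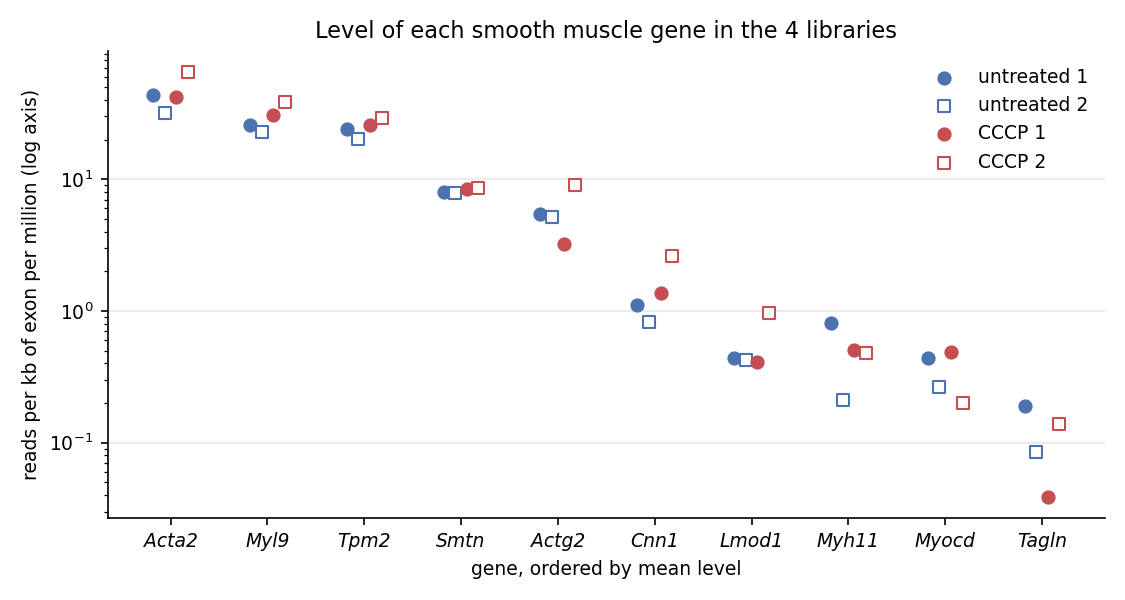
Level of each of the 10 genes, in RPKM on a log axis, in the 2 untreated (blue) and 2 CCCP (red) libraries, with replicate 1 filled and replicate 2 open. Acta2, Myl9 and Tpm2 lie above 20 RPKM in every library, and Lmod1, Myh11, Myocd and Tagln lie below 1 RPKM, where Tagln is drawn over all 1586 exon bases.

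None of the 9 genes that could be tested passed an adjusted p-value of 0.05 under edgeR (quasi-likelihood, adjusted by Benjamini and Hochberg's method over all genes tested), where 0 of 19837 genes (0.0%) passed. Their adjusted p-values ran from 0.272 for Myl9 to 0.988 for Myocd. Tagln failed the filter on low counts. At an unadjusted p under 0.05 there were 2 of the 9, Cnn1 and Myl9, both higher in CCCP, where 5.45% of all genes tested were higher at that level, and 0 of the 9 lower, against 9.16% of all genes. DESeq2 called 0 of the 9, and 2.99% of all genes.

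For 4 of the 9 genes, Cnn1, Myl9, Tpm2 and Smtn, the treated and untreated values did not overlap and were higher with CCCP, against 24.0% of all genes tested, and 0 of the 9 were lower without overlap, against 24.8%. The median log2 fold change of the 9 genes was 0.31, beside -0.01 over all genes tested. These values moved with single libraries. The median of the 9 genes was 0.60 when untreated replicate 1 was left out, 0.22 without untreated replicate 2, 0.66 without CCCP replicate 1 and 0.15 without CCCP replicate 2. Without CCCP replicate 1, 7 of the 9 lay above and 1 below, where 35.8% and 38.2% of all genes did. Without CCCP replicate 2, 5 lay above and 2 below, where 32.9% and 34.4% of all genes did.

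The 2 smooth muscle actins both had their highest value in CCCP replicate 2. Acta2 stood at 124.5 and 90.4 CPM in untreated replicates 1 and 2 and at 118 and 185 CPM in CCCP replicates 1 and 2. The groups overlapped, since untreated replicate 1 lay above CCCP replicate 1. On the log2 scale the difference was 0.50 (SE 0.25, 95% interval -0.11 to 1.11, edgeR adjusted p = 0.408). It was 0.15 without CCCP replicate 2 and 0.79 without CCCP replicate 1. Without a filter on low counts Acta2 passed, with an edgeR adjusted p of 0.0233, where the adjusted p-values of the alternatives, DESeq2 included, ran from 0.0233 to 0.944.

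Actg2, the actin most used by visceral smooth muscle, was steady between the untreated libraries and unsteady between the treated ones. It stood at 7.21 and 6.74 CPM untreated and at 4.22 and 12.0 CPM in CCCP. The 2 CCCP libraries thus lay on either side of both untreated libraries, 2.84-fold apart. Its log2 fold change of 0.21 had a 95% interval from -0.93 to 1.36 (edgeR adjusted p = 0.861), and it was -0.71 without CCCP replicate 2. Per length of exon, Actg2 amounted to 12.5% and 16.1% of the Acta2 level untreated and to 7.69% and 14.0% with CCCP.

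Myl9 and Myh11 are the 2 myosin chains among the genes. Myl9 stood at 30.4 and 26.9 CPM untreated and at 36.0 and 45.2 CPM in CCCP, with no overlap between groups. On the log2 scale it differed by 0.50 (SE 0.16, 95% interval 0.11 to 0.90, edgeR adjusted p = 0.272). It is the shortest of the 10 genes, at 1171 exon bases, and log2 fold changes fell with exon length across all genes tested (Spearman's rho -0.35, across genes). Once the length trend of each library was removed the value for Myl9 was 0.31.

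Myh11 (chromosome 16, 14194527 to 14292188), the heavy chain most restricted to smooth muscle, was the most variable of the 9 between untreated libraries. It had 306 and 59 counts there, or 6.11 and 1.58 CPM, a gap of 3.88-fold, while the CCCP libraries stood at 3.81 and 3.58 CPM, between the untreated values. The log2 fold change of -0.06 had a 95% interval from -1.51 to 1.38 (edgeR adjusted p = 0.971). Without untreated replicate 1 the value was 1.24 and without untreated replicate 2 it was -0.69, so its sign depended on which untreated library was kept.

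Among the actin-binding proteins, Cnn1 (chromosome 9, 22099221 to 22109221) had the largest fitted change of the 9. It stood at 2.34 and 1.74 CPM untreated and at 2.88 and 5.46 CPM in CCCP. Both CCCP libraries lay above both untreated ones, with CCCP replicate 2 at 1.89-fold the level of CCCP replicate 1. Its log2 fold change was 1.03 (SE 0.41, 95% interval 0.04 to 2.01, edgeR adjusted p = 0.333), and 0.51 without CCCP replicate 2.

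Tpm2 (chromosome 4, 43513726 to 43523583) and Smtn also had no overlap between groups, by narrow margins. Tpm2, a tropomyosin that skeletal muscle uses as well, stood at 80.8 and 67.8 CPM untreated and at 86.7 and 98.0 CPM in CCCP. Its log2 fold change was 0.31, with a 95% interval from -0.02 to 0.65 (edgeR adjusted p = 0.362). Smtn was the steadiest of the 9, at 48.7 and 47.6 CPM untreated and 50.9 and 52.0 CPM in CCCP. Its groups overlapped when libraries were scaled by total counts alone, and its log2 fold change of 0.09 had a 95% interval from -0.18 to 0.37 (edgeR adjusted p = 0.710).

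Lmod1 (chromosome 1, 135324813 to 135368065), which nucleates actin filaments, was set apart by a single library. It had 86 and 63 counts untreated and 78 and 139 counts in CCCP, or 1.72, 1.69, 1.61 and 3.83 CPM in that order. The first 3 libraries lay close together, and CCCP replicate 2 stood 2.38-fold above CCCP replicate 1. The log2 fold change of 0.67 had a 95% interval from -0.49 to 1.83 (edgeR adjusted p = 0.534) and was -0.07 without that library.

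The coactivator Myocd (chromosome 11, 65173608 to 65269989) was lowest in the library where most of the others were highest. It stood at 3.64 and 2.19 CPM untreated and at 4.06 and 1.65 CPM in CCCP, on 60 to 197 counts. Replicate 1 was the higher library in each group, and the lowest value was in CCCP replicate 2, where 7 of the 9 genes had their highest. The log2 fold change was -0.03, with a 95% interval from -1.25 to 1.2 (edgeR adjusted p = 0.988). Without CCCP replicate 2 it was 0.48 and without CCCP replicate 1 it was -0.81.

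**Figure D2:**
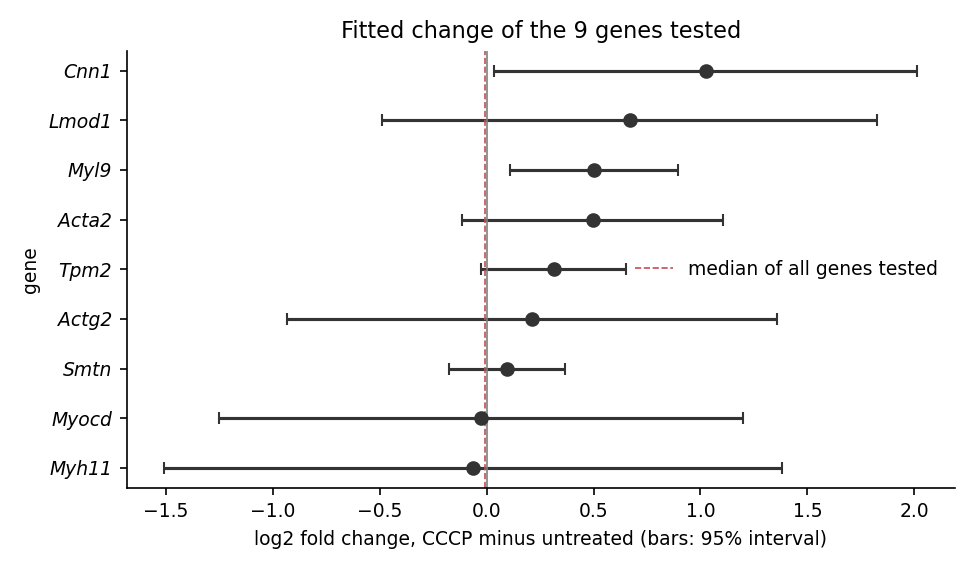
Fitted log2 fold change of each of the 9 genes tested, CCCP minus untreated, with its 95% interval as a bar. The intervals of Cnn1 and Myl9 lie above 0 before adjustment over all genes, those of the other 7 include 0, and the dashed line marks the median of all genes tested at -0.01.

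The genes also varied between libraries of one group. Of the 9, 7 had their highest value in CCCP replicate 2 (Acta2, Cnn1, Myl9, Tpm2, Actg2, Smtn and Lmod1), against 26.3% of all genes tested. In lists read below, so did 9 of 12 non-muscle counterparts, 7 of 20 other contractile genes and 6 of 16 in the SRF list. The numbers were 5 of 17 striated muscle genes, 1 of 13 fibroblast and mesenchymal markers and 0 of 12 pericyte and mural markers. Of the 9, 6 were lowest in untreated replicate 2, and the share of all genes lowest there was not counted. Averaged over the 9 genes, log2(CPM + 0.1) about the mean of each gene was 0.06 and -0.39 in untreated replicates 1 and 2 and -0.02 and 0.36 in CCCP replicates 1 and 2. The libraries numbered 1 thus lay close to each other, and those numbered 2 lay at the ends. The ratio of the highest to the lowest library ran from 1.09 for Smtn and 1.45 for Tpm2 to 3.14 for Cnn1 and 3.88 for Myh11.

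Outside the lists used here, the genes nearest to that mean profile were Efemp1, Eepd1 and Uros, at root mean square distances of 0.057, 0.062 and 0.067 log2 units over the 4 libraries. Among 10651 genes with a mean of at least 10 CPM, 19 lay closer than the nearest of the smooth muscle genes, Tpm2, at 0.101. Efemp1, which encodes an extracellular matrix protein, stood at 29.8 and 19.6 CPM untreated and at 26.0 and 34.9 CPM in CCCP.

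**Figure D3:**
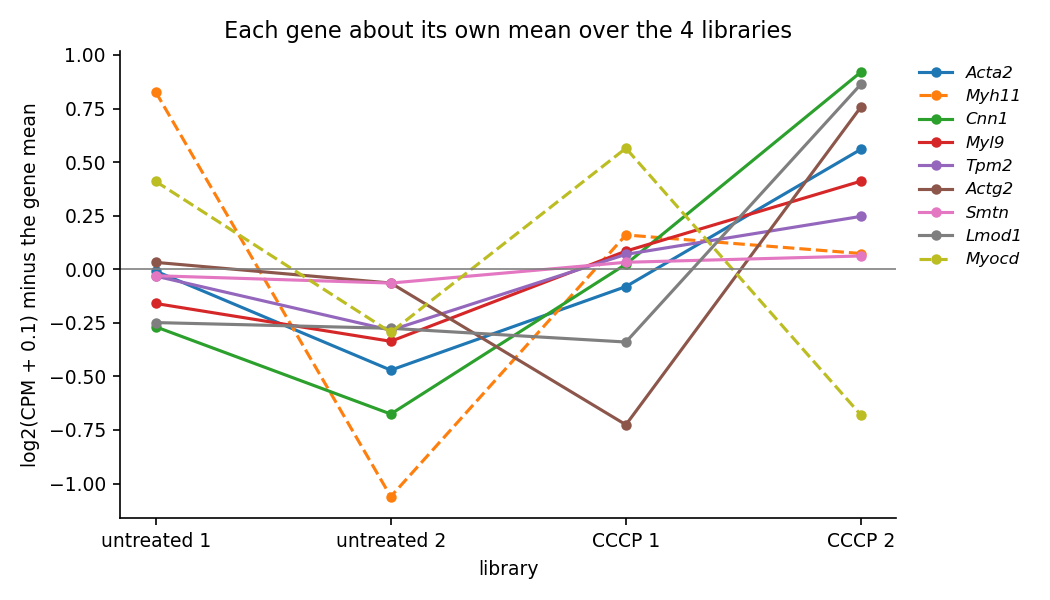
Each of the 9 genes tested as log2(CPM + 0.1) about its own mean in the 4 libraries, where lines serve only to follow a gene and dashed lines mark Myh11 and Myocd, the 2 genes without their highest value in CCCP replicate 2. In CCCP replicate 2 the averaged value is 0.36, while Myocd is lowest there.

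The regulators of the genes were read next, and other lists after them. Of all genes tested, 24.0% lay above and 24.8% below without overlap. At an unadjusted p under 0.05 in edgeR, 5.45% were higher and 9.16% lower, and DESeq2 called 2.99%. The counts of each list from here on are to be read beside these shares. SRF itself (Srf) stood at 84.9 and 88.0 CPM untreated and at 91.4 and 99.8 CPM in CCCP, with no overlap and a log2 fold change of 0.14 (edgeR adjusted p = 0.572). Its actin-regulated coactivators Mrtfa and Mrtfb had log2 fold changes of 0.15 and -0.11. In the list of SRF and its cofactors, 5 of 16 genes lay above and 2 below without overlap, the median was 0.05, and 0 passed in edgeR, at an unadjusted p under 0.05, or in DESeq2. Csrp1, a LIM domain protein, had the largest value at 0.29, and Elk4, an ETS-family partner of SRF, the most negative at -0.59. Elk4 shares 54.3% of its exon bases with other genes.

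TGF-beta is a known inducer of contractile genes. Of 18 genes of its pathway, 2 lay above and 4 below without overlap, against 24.0% and 24.8% of all genes. The median was -0.05. In edgeR 0 passed, 2 were lower at an unadjusted p under 0.05, and DESeq2 called 0. The ligand Tgfb1 stood at 34.3 and 43.0 CPM untreated and at 35.1 and 39.2 CPM in CCCP, with overlap. Ccn2, a matricellular target of the pathway, had the largest value of the list, 0.69, and like Acta2 and Actg2 it was highest in CCCP replicate 2, at 26.0 CPM against 11.2 to 13.5 CPM in the other 3. Skil, a repressor of the pathway, had the most negative, -0.44.

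Phosphorylation of the regulatory light chain sets the force of smooth muscle, and 15 genes that control it were read. There were 6 above and 5 below without overlap, against 24.0% and 24.8% of all genes, with a median of -0.09. In edgeR 0 passed, and at an unadjusted p under 0.05 there were 1 higher and 5 lower. DESeq2 called 4, of which 1 was higher and 3 were lower. Among them, named after its values were seen, was Ppp1r12a, a subunit of the myosin phosphatase, which stood at 152.8 and 142.7 CPM untreated and at 103.9 and 100.9 CPM in CCCP. Its log2 fold change was -0.53 (edgeR adjusted p = 0.184, DESeq2 adjusted p = 0.0213). Ppp1r14a, an inhibitor of that phosphatase, had the largest value of the list, 0.57, at 7.49 and 9.92 CPM untreated and 10.8 and 15.1 CPM in CCCP, and passed in neither tool.

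In the list of 21 other genes of the contractile apparatus, 20 could be tested, and the median was -0.12. Without overlap, 2 lay above and 7 below, against 24.0% and 24.8% of all genes. In edgeR 0 passed, with 1 higher and 2 lower at an unadjusted p under 0.05. DESeq2 called 1, which was lower. It was Lpp, named after its values were seen, at -0.70 (edgeR adjusted p = 0.166, DESeq2 adjusted p = 0.00426). Pdlim7, an actin-associated LIM protein, had the largest value, 0.31. The actin-binding protein Nexn had the most negative, -0.79, at 18.4 and 13.2 CPM untreated and 10.9 and 7.33 CPM in CCCP (edgeR adjusted p = 0.296). Mylk, Csrp1 and Prrx1 each stand in 2 of the lists.

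Non-muscle forms of the same proteins were the more abundant partners in each pair read below. Outside those pairs, Tpm3 stood at 21.7 to 28.8 RPKM, near the 20.2 to 29.2 RPKM of Tpm2. In CPM Tpm3 was higher, at 196 to 261 over 9043 exon bases, against 67.8 to 98.0 over 3355 for Tpm2. How near the 2 genes stand in RPKM thus rests on those lengths. Of 12 non-muscle genes, 5 lay above and 1 below without overlap, against 24.0% and 24.8% of all genes. The median was 0.17. In edgeR 0 passed, 2 were higher at an unadjusted p under 0.05, and DESeq2 called 0. Myl12b, a light chain, had the largest value, 0.42, and the heavy chain Myh10 the most negative, -0.14.

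Acta2, Tpm2, Myl9, Cnn1 and Myh11 were also read against such a partner, per length of exon. Acta2 amounted to 5.69% and 3.63% of Actb untreated and to 4.92% and 6.98% with CCCP. Tpm2 amounted to 12.85% and 8.86% of Tpm4 untreated and to 12.14% and 12.89% with CCCP. For both pairs the groups overlapped. Myl9 amounted to 33.1% and 25.8% of Myl12a untreated and to 30.2% and 31.8% with CCCP, so that relative to its non-muscle partner the groups overlapped. Cnn1 did not overlap, at 0.489% and 0.357% of Cnn3 untreated and 0.515% and 0.974% with CCCP. Myh11 stayed under 1% of Myh10 in all 4 libraries. Actb shares 18.8% of its exon bases with other genes. Of 1871 stretches of 50 bases of its transcript, 266 occur in transcripts of other genes, against 7 of 1986 for Acta2. Reads from shared bases may have gone uncounted, so Acta2 as a percentage of Actb may be too high.

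Striated muscle uses close relatives of these proteins, and its markers were read beside them. They summed to 524 and 388 CPM untreated and to 544 and 528 CPM in CCCP, with a median of 0.25. Of 17 tested genes, 7 lay above and 1 below without overlap, against 24.0% and 24.8% of all genes. Skeletal actin (Acta1) stood at 37.5 and 34.8 CPM untreated and at 68.3 and 71.4 CPM in CCCP, and its log2 fold change was 0.95 (edgeR adjusted p = 0.144, DESeq2 adjusted p = 3.68e-06). In this list 0 passed in edgeR, 3 were higher at an unadjusted p under 0.05, and DESeq2 called 1. Levels within the list differed widely. The cardiac and muscle genes Myl2 and Lmod2 were at or near 0, with at most 0.165 CPM. Cardiac actin (Actc1) stood at 146.3 and 91.2 CPM untreated and at 151.1 and 132.8 CPM in CCCP, with overlap. Per length of exon, Actc1 amounted to 228% and 195.8% of Acta2 untreated and to 247.5% and 139.4% with CCCP.

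Pericyte and mural markers summed to between 668 and 750 CPM, with overlap. Of 12 tested, 0 lay above and 5 below without overlap, where 24.0% and 24.8% of all genes did. The median was -0.08, from Pdgfrb at 0.22 to Abcc9 at -0.90. Fibroblast and mesenchymal markers had 2 of 13 above and 4 below and a median of -0.14. Visceral mesenchyme markers had 0 of 10 above and 2 below and a median of 0.06. In these 3 lists 0 passed in edgeR, while at an unadjusted p under 0.05 there were 1, 3 and 0 genes in that order, and DESeq2 called 1, 0 and 0.

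Markers of blood, vessels and liver complete the lists. Endothelial markers had 0 of 11 above and 3 below without overlap, where 24.0% and 24.8% of all genes did, and a median of -0.09. Haematopoietic markers had 1 of 9 tested above and 2 below and a median of -0.40. Hepatic markers stood apart, at 1690 and 966 CPM summed untreated and 53.4 and 106 CPM in CCCP, with 10 of 10 below without overlap and a median of -4.44. In these 3 lists 0 passed in edgeR, while at an unadjusted p under 0.05 there were 2, 2 and 10 genes, and DESeq2 called 0, 1 and 7. The part of any of these cells in the values of the smooth muscle genes was not tested.

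**Figure D4:**
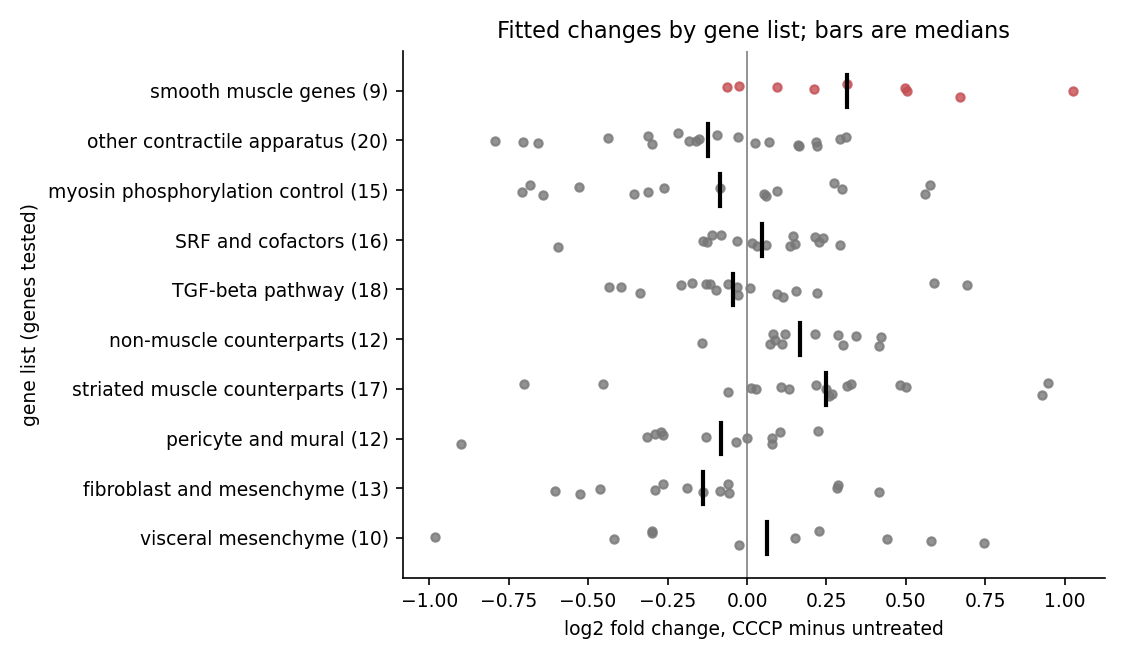
Fitted log2 fold change, CCCP minus untreated, of each tested gene by list, with a vertical bar at the median of each list; the endothelial, hepatic and haematopoietic lists are not drawn. The smooth muscle genes (red) have a median of 0.31, the striated and non-muscle counterparts 0.25 and 0.17, and the other contractile apparatus -0.12.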

How the data were processed

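Poly(A) libraries of 4 explant samples were analysed from raw counts of reads per gene, which the authors made with featureCounts 2.0.3 on the mm10 RefSeq annotation, per the file headers (exons summed per gene, no strand option, no option for multi-mapping reads or for reads on more than 1 gene). HISAT2, SAMtools, FastQC and Subread are named in the submitters' processing notes. Other values, namely the exon length of each gene, were also deposited by the authors. Groups came from sample titles. The count column of untreated replicate 1 carries a name (UM1) that differs from its title, so it was assigned by the deposit's own list of files.

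The test was edgeR 4.0.16 (glmQLFit, glmQLFTest) in R 4.3.3 with TMM scaling, filterByExpr (minimum count 10, minimum total 15) and group as the sole term, two-sided, with Benjamini-Hochberg adjustment over 19837 genes. Intervals are 95% intervals of that fit. The biological coefficient of variation was 21.9%. An exact permutation test of 2 against 2 libraries was not used. DESeq2 1.42.0, other scalings, no filter, removal of the exon length trend, a replicate block and leaving out each library were the alternatives. The fits were tested on simulated data. The 10 genes and the lists were chosen with earlier results of these data known. Named genes were all 10, fixed partners and regulators, and the 2 ends of each list at a mean of at least 5 CPM, apart from items not reported here. All 10 genes had the same coordinates in the RefSeq table. Intervals and floors cover these libraries and counting error only.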

Additional observations from a re-analysis of the deposited data

How the results depend on the processing

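With 0 genes of 19837 past the adjusted threshold in edgeR, 1107 of 32261 passed without a filter on low counts (1097 of the same 19837), 594 in DESeq2, 2118 with the replicate block and 1242 with the replicate block and the length trend removed, and between 10 of 20355 and 46 of 21484 when 1 library was left out; the cause was not tested. Of the smooth muscle genes, 1 passed without the filter (Acta2) and 1 with the replicate block (Myl9, edgeR adjusted p = 0.0385, range 0.0385 to 0.894 over all alternatives), and 0 in each of the other alternatives. Deviations of libraries that share a number correlated at 0.36 over genes, and such libraries were close in total counts. With only 2 pairs and no label on its meaning, the number was taken as a name alone in the main fit. Whether it marks a pairing was not tested. With 1 library left out and Tagln counted where it passed the filter, the number of genes above without overlap ran from 4 to 7 and below from 0 to 3, and the median from 0.12 to 0.60; of all genes, 32.9% to 38.3% then lay above and 34.4% to 42.3% below. Without Tagln at most 2 lay below. Values that changed sign were those of Myh11 (0.18 with the replicate block, 0.36 with block and length, 0.15 with length, and -0.69 to 1.24 with 1 library left out), Actg2 (-0.13 with block and length, -0.71 to 0.79), Myocd (0.12 with block and length, 0.20 with length, -0.81 to 0.48) and Lmod1 (from -0.073 without CCCP replicate 2 up to 1.18). Acta2, Cnn1, Myl9, Tpm2 and Smtn kept a positive sign in all 11 alternatives. For Cnn1, Myl9, Tpm2 and Smtn, whose groups did not overlap, leaving out 1 library could hardly reverse it. The other alternatives refit the same libraries, and the share of all genes that kept their sign was not counted. A fit with 1 library in a group assumes that it varies like the other group.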
